A study of Mus musculus with 6 samples.

Results

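The genes described here are 10 mouse genes that make, break down or sense prostaglandins, namely the cyclooxygenases Ptgs1 and Ptgs2, the terminal synthases Ptges, Ptgds, Hpgds and Tbxas1, the inactivating enzyme Hpgd, and the receptors Ptger1, Ptger2 and Ptger4. They were taken by symbol from the 55401 genes of the count table, and all 10 passed the filter on low counts, as did 19554 genes in all. The list was chosen by the counts themselves, since it was drawn up with the log2 fold changes between the strains already known, so the differences of its members are given as descriptions. No p is given for a member, and how many members pass the call rule used for all genes is stated only beside the share of all genes that pass it. RNA was sequenced from brain cells selected for CD11b, an integrin chain found on myeloid cells such as microglia, in 3 libraries of MRL/lpr mice and 3 libraries of MRL/mpj mice. All 6 libraries came from untreated mice aged 6 weeks. Both strains share the MRL background, and MRL/lpr mice, which develop a lupus-like disease, also carry the lpr mutation of Fas. The study counts mice as its n for these profiles, but the labels do not tie a library to a mouse, so the spread between libraries may be technical in part.

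Prostaglandins are short-lived lipid signals made from arachidonic acid, which phospholipases release from membranes. Cyclooxygenases turn arachidonic acid into prostaglandin H, and a terminal synthase then decides the product: PGE synthase makes PGE2, the PGD synthases make PGD2, and thromboxane synthase makes thromboxane. PGE2 acts on the EP receptors, and 15-hydroxyprostaglandin dehydrogenase, the product of Hpgd, starts the inactivation of PGE2 and related lipids. In the brain, microglia are known for a high content of Ptgs1 and Hpgds, while Ptgs2 is an early response gene.

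In the MRL/lpr libraries, Hpgd was 13.2-fold higher than in the MRL/mpj libraries, and Ptgs2, Tbxas1 and Ptger4 were between 2.46-fold and 3.11-fold higher. Ptgs1 and Hpgds, the most abundant cyclooxygenase and the most abundant terminal synthase of both strains, differed between the strains by at most 1.17-fold. Ptgds was 1.44-fold lower. A gene was called where its log2 fold change reached 1 in size and its p, adjusted over all genes in edgeR's quasi-likelihood test, was under 0.05. Of the 10 members, 4 were called higher, where 4.67% of the genes tested were, and 0 were called lower, where 3.66% were (8.34% in either direction). The 3 libraries of one strain did not overlap those of the other in 7 members that were higher and 2 that were lower, and over all genes tested these shares were 19.6% and 19.4% (39% in either direction). Overlap was judged in CPM after TMM scaling. In FPKM, of the 7 members, Ptgs1 lay wholly on the other side and Ptger2 tied at 0.19 in replicate 2 of both strains. This count therefore depends on the scaling. The members had a median log2 fold change of 0.92, and all genes tested had one of -0.01. Since the members were picked on this contrast, nothing is read from these counts.

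The start regions of 4 members are shown first because these genes include the cyclooxygenase pair and, besides Ptgs2, 2 more of the genes that were called higher, Hpgd and Ptger4. They are the 250 bases before the RefSeq gene start (GRCm38.p6), each written 5′ to 3′ on the strand of the gene. Capitals mark every match, on either strand, to one of the motifs named after them.
Hpgd, chr8:56294302-56294551, plus strand: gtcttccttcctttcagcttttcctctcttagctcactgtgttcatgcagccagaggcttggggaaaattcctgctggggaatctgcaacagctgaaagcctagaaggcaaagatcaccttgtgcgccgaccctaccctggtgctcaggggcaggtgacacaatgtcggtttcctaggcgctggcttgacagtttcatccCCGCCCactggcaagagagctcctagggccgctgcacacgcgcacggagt
Ptgs1, chr2:36230176-36230425, plus strand: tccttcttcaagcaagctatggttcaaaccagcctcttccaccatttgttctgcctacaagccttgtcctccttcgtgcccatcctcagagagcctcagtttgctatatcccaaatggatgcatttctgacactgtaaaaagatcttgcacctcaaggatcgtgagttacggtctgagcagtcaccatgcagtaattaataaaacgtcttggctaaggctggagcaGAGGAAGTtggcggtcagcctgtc
Ptgs2, chr1:150099781-150100030, plus strand: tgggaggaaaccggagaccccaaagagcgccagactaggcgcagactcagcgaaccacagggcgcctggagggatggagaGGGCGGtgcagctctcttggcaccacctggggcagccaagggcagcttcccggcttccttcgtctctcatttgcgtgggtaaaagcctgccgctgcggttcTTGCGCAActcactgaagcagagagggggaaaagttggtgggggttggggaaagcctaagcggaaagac
Ptger4, chr15:5244188-5244437, minus strand: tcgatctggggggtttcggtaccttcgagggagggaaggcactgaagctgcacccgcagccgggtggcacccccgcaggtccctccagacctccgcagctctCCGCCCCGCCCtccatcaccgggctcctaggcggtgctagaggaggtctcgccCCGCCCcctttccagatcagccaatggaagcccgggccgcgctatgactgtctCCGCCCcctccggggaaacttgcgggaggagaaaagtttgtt

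The motifs searched were the TATA box (TATAAA), the E-box (CACGTG), the cyclic AMP response element (TGACGTCA) and its core (TGACG), an AP-1 element (TGANTCA), a C/EBP element (TTGCNNAA), an NF-kB element, a PU.1 element (GAGGAAGT), an interferon-stimulated response element, a gamma-activated sequence (TTCNNNGAA) and the GC box (GGGCGG). A region was available for 9 of the 10 members, without Ptger1. The full cyclic AMP response element holds its own core, and no other motif of this search contains another. The C/EBP letters occur in Ptgs2, 62 to 69 bases before the start, and in Hpgds, and 9.56% of the 32851 start regions hold them. The PU.1 letters occur in Ptgs1 and in Hpgds, and 2.44% of all regions hold them. GC boxes occur in Hpgd, Ptgs2, Ptges and Ptger4, with 4 of them in Ptger4, and 32.7% of all regions hold one. TATA box letters occur in Tbxas1 alone of the 9, and in 12.4% of all regions. AP-1 letters occur in Ptgds and Tbxas1, and in 6.75% of all regions. The E-box, the cyclic AMP element and its core, and the NF-kB, interferon-stimulated and gamma-activated elements, held by 6.02%, 1.55%, 17.8%, 1.41%, 2.98% and 7.02% of all regions, were not found in these 9 windows. Exons of GENCODE M21 take up 178 of the 250 bases of the Hpgds window, 93 of the Ptgds window and 6 of the Tbxas1 window, so matches there may lie inside annotated transcripts. The windows of Tbxas1 (chr6:38918736-38918985) and Ptges (chr2:30903298-30903547) lie inside these genes as GENCODE M21 annotates them. There the genes span chr6:38875404-39084585 and chr2:30889471-30929863, so these windows are not next to the outermost annotated starts. A match is a run of letters and not a measured binding site.

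The libraries held between 45481609 and 49846634 counts. In each of them 1138 to 1288 genes stood at exactly 4 counts, against at most 415 at 3 and at most 261 at 5, so a read pair seems to enter as about 4 counts, and low counts rest on fewer pairs than their size gives. The mitochondrial share of all counts was 3.06% to 3.49% in MRL/lpr and 5.84% to 6.38% in MRL/mpj. Fas had 461, 282 and 298 counts in MRL/lpr and 426, 432 and 362 in MRL/mpj. Its log2 fold change was -0.06 (adjusted p = 0.887 in edgeR's quasi-likelihood test), so this check did not tell the strains apart. Such counts take mutant and intact transcripts together. Xist, the RNA that silences an X chromosome in female cells, had 8886 to 11319 counts in MRL/lpr and 27 to 38 in MRL/mpj, while 4 Y chromosome genes together had 8408 to 15046 counts in each library. The methods describe female mice, which the Y chromosome counts in each library and the low Xist counts in MRL/mpj do not bear out. The sex of the animals is therefore unclear, and strain cannot be told apart from it in these libraries. Of 10 microglia markers, 0 were called higher and 1 was called lower, and their summed level was 22835 to 25471 in MRL/lpr and 26860 to 27600 in MRL/mpj, as CPM (counts scaled to a common library total, with TMM factors). In bulk RNA, fewer cells of a type and less RNA per cell cannot be told apart.

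Between genes, levels were compared as FPKM, which divides counts by gene length and library depth. Ptgs1 came first in both strains, at 162 ± 2.04 FPKM (SD, n = 3) in MRL/lpr and 172 ± 0.386 FPKM (SD, n = 3) in MRL/mpj. In the MRL/lpr libraries Hpgd, Hpgds, Ptgs2, Tbxas1, Ptgds, Ptger4, Ptger1, Ptges and Ptger2 followed in that order. In the MRL/mpj libraries the order after Ptgs1 was Hpgds, Ptgds, Ptgs2, Tbxas1, Hpgd, Ptger1, Ptger4, Ptges and Ptger2. Hpgd thus stood at rank 2 in one strain and at rank 6 in the other. Neighbours whose libraries overlapped were Ptgs2 with Tbxas1, Ptger4 with Ptger1 and Ptger1 with Ptges in MRL/lpr, and Hpgd with Ptger1 and Ptger1 with Ptger4 in MRL/mpj. The other neighbours in each order were separate in each library of the strain.

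**Figure D1:**
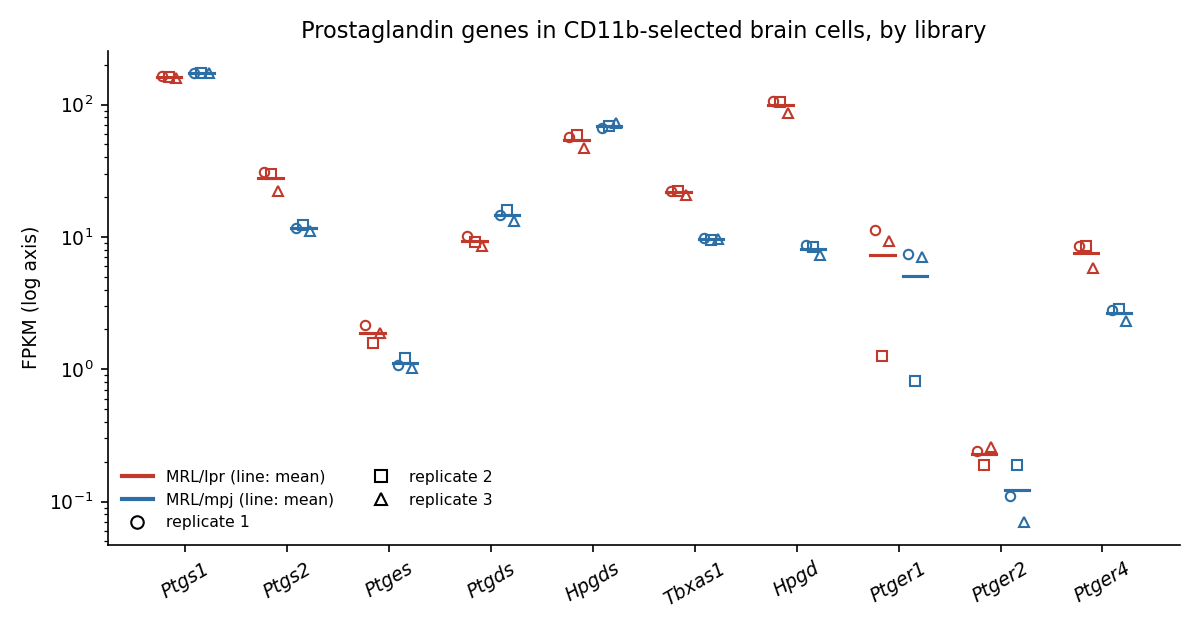
FPKM of the 10 prostaglandin genes in each library on a log axis, with MRL/lpr in red and MRL/mpj in blue, symbols for replicates 1 to 3 and a line at the mean. Hpgd lies at 85.98 to 106.06 FPKM in MRL/lpr and at 7.33 to 8.65 in MRL/mpj, Ptgs1 lies at similar levels in both, and replicate 2 of each strain lies far below the others for Ptger1.

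Ptgs1 (ENSMUSG00000047250, chromosome 2) encodes cyclooxygenase-1, the form that many cells hold at a steady level. It had 34170, 34186 and 31397 counts in MRL/lpr and 37069, 35895 and 37339 counts in MRL/mpj. After TMM scaling these were 735 ± 14.3 CPM and 719 ± 2.02 CPM (SD, n = 3 each). On the log2 scale it differed by 0.03 (SE 0.05) with TMM scaling and -0.09 with scaling by library size only, so its direction depends on the scaling. The same change of scaling moved the median of all genes tested from -0.01 to -0.13. The coefficient of variation of Ptgs1 within a strain was 1.94% in MRL/lpr and 0.281% in MRL/mpj, and only 0.143% of the genes tested had a smaller spread within strains.

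Ptgs2 (ENSMUSG00000032487, chr1:150100031-150108227 in GENCODE M21 on GRCm38) encodes cyclooxygenase-2, the inducible form. It had 7665, 7410 and 5200 counts in MRL/lpr and 2950, 3025 and 2835 counts in MRL/mpj. Each MRL/lpr library was above each MRL/mpj library, and MRL/lpr replicate 3 was the lowest of its strain. The levels were 148 ± 20.9 CPM and 57.5 ± 3.01 CPM (SD, n = 3 each), a log2 fold change of 1.37 (standard error 0.11), which ran from 1.30 to 1.48 when 1 library was left out. The ratio of Ptgs2 to Ptgs1 within a library, which does not depend on the scaling between libraries, was 0.19, 0.184 and 0.14 in the MRL/lpr libraries and 0.0675, 0.0715 and 0.0644 in the MRL/mpj libraries. Cyclooxygenase-1 transcripts therefore outnumbered those of cyclooxygenase-2 per length in each of the 6 libraries, and the ratio was higher in each MRL/lpr library.

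Early response genes that tissue digestion is known to induce moved with Ptgs2. Of 13 such genes, listed after the counts were seen (among them Fos, Junb, Egr1, Atf3 and Hspa1a), 13 had an adjusted p under 0.05 and a higher level in MRL/lpr in edgeR's test, and 5 also had a log2 fold change of at least 1. Over all genes tested, 11.1% were higher by the adjusted p alone and 4.67% were called higher. Since the list was drawn up with the counts in view, both of its counts are descriptions. The log2 fold changes of the 13 genes ran from 0.73 to 1.17, against 1.37 for Ptgs2. Their summed level was 45752 to 51938 CPM in MRL/lpr and 26438 to 28026 CPM in MRL/mpj. Neutrophil markers, whose cells also express Ptgs2, summed to 725 to 851 CPM and to 579 to 644 CPM, with 0 of 10 called in either direction and 0 of 10 at 0 counts. By the adjusted p alone Ngp, S100a8 and Retnlg were higher, at log2 fold changes of 0.40, 0.36 and 0.36 (adjusted p = 0.00807, 0.0328 and 0.0469 in edgeR's test). Elane and Mpo were the markers with a negative log2 fold change, at -0.03 each. The part of these genes and cells in the difference of Ptgs2 was not tested.

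**Figure D2:**
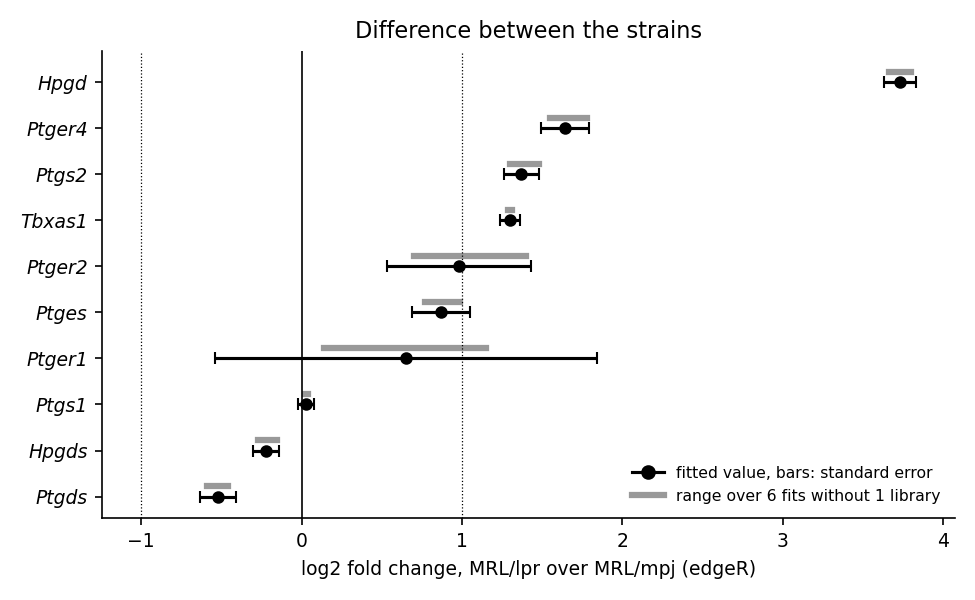
Fitted log2 fold change of MRL/lpr over MRL/mpj for each member, with its standard error as a bar, the range over the 6 fits that each leave out 1 library in grey, and dotted lines at the fold minimum. Hpgd at 3.73, Ptger4 at 1.64, Ptgs2 at 1.37 and Tbxas1 at 1.30 lie to the right of the minimum with all of their grey range, and Ptger1 has the longest bar, with a standard error of 1.19.

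Hpgds (ENSMUSG00000029919, chromosome 6) encodes the hematopoietic PGD synthase, which is typical of microglia and mast cells. It had 19803, 20450 and 15389 counts in MRL/lpr and 23434, 23658 and 26013 counts in MRL/mpj. Each MRL/lpr library was below each MRL/mpj library, by a small step: the levels were 408 ± 35.0 CPM and 476 ± 22.2 CPM (SD, n = 3 each), a log2 fold change of -0.22 (standard error 0.08). With scaling by library size only the log2 fold change was -0.34. Of 10 mast cell markers 3 were tested, 1 was called higher and 0 were at 0 in all libraries, and they summed to 14.9 to 22.5 CPM in MRL/lpr and 18.5 to 20.7 CPM in MRL/mpj. Most of this sum came from Hdc, with 794, 879 and 531 counts in MRL/lpr and 995, 857 and 913 in MRL/mpj. Kit had 67, 106 and 38 counts against 62, 57 and 130. The tryptase genes Tpsb2 and Tpsab1 had 12 to 17 and 6 to 15 counts in MRL/lpr and 0 in MRL/mpj. Cpa3 had 8, 22 and 8 counts against 4, 0 and 0, and Mcpt4 had 0, 19 and 19 against 4, 0 and 0. The other markers had at most 12 counts in any library. The part of mast cells in the difference of Hpgds was not tested.

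Ptgds (ENSMUSG00000015090, chromosome 2) encodes the other PGD synthase, a lipocalin made in choroid plexus, meninges and oligodendrocytes. It had 909, 815 and 720 counts in MRL/lpr and 1336, 1405 and 1212 in MRL/mpj. The strains did not overlap, and the log2 fold change was -0.52 (standard error 0.11), or -0.64 with scaling by library size only. Markers of choroid plexus and meninges were lower in the same libraries. Of 8 choroid plexus markers 7 were called lower, and their summed level ran from 359 to 369 CPM in MRL/lpr and from 1075 to 1157 CPM in MRL/mpj. Of 8 meningeal fibroblast markers 4 were called lower, with 26.9 to 46.6 CPM against 144 to 155 CPM. Of 8 oligodendrocyte markers 1 was called lower, with 123 to 145 CPM against 134 to 159 CPM. In these 3 lists 0 markers were at 0 in all libraries. The part of these cells in the difference of Ptgds was not tested.

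Tbxas1 (ENSMUSG00000029925, chr6:38875404-39084585) encodes thromboxane synthase. It had 10989, 10862 and 9632 counts in MRL/lpr and 4902, 4644 and 4879 counts in MRL/mpj. The strains were far apart relative to their spread, at 232 ± 1.81 CPM and 94.0 ± 1.26 CPM (SD, n = 3 each), a log2 fold change of 1.30 (standard error 0.06). After scaling, only 0.0358% of the genes tested had a smaller spread within strains. The log2 fold change stayed between 1.29 and 1.31 without any 1 library and was 1.18 with scaling by library size only. Platelets and their precursors also hold this enzyme. Of 9 markers of these cells 5 were tested, 0 were called in either direction and 0 were at 0 in all libraries, but their summed level ran from 113 to 151 CPM in MRL/lpr and from 55.1 to 103 CPM in MRL/mpj. Most of that sum came from Itgb3, an integrin gene that microglia can also express, with 4233, 2006 and 2119 counts in MRL/mpj and 4274, 4769 and 5027 in MRL/lpr. Gp9, a chain of a platelet adhesion receptor, had 854, 915 and 1110 counts in MRL/lpr and 826, 518 and 606 in MRL/mpj, a log2 fold change of 0.75 (adjusted p = 0.0258 in edgeR's quasi-likelihood test). The other 7 markers had at most 128 counts in any library. The part of platelets in the difference of Tbxas1 was not tested.

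Ptges (ENSMUSG00000050737, chromosome 2) encodes the inducible microsomal PGE synthase, which works together with cyclooxygenase-2. It was the least abundant of the terminal synthases, with 458, 335 and 375 counts in MRL/lpr and 236, 259 and 228 in MRL/mpj. Each MRL/lpr library was above each MRL/mpj library, and the log2 fold change of 0.87 (standard error 0.18) lay under the fold minimum. Its range without 1 library was 0.77 to 0.99.

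Set against each other within a library, the terminal synthases stood in another order in each strain. Tbxas1 made up 24.1% to 26.6% of the summed FPKM of the 4 synthases in MRL/lpr and 9.97% to 10.7% in MRL/mpj. Hpgds had a share of 60.1% to 64.2% in MRL/lpr and 72.1% to 75.3% in MRL/mpj, and Ptgds had 9.95% to 11.1% against 13.6% to 16.7%. Ptges had at most 2.39% in any library. Tbxas1 stood above Ptgds in each MRL/lpr library and below it in each MRL/mpj library.

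**Figure D3:**
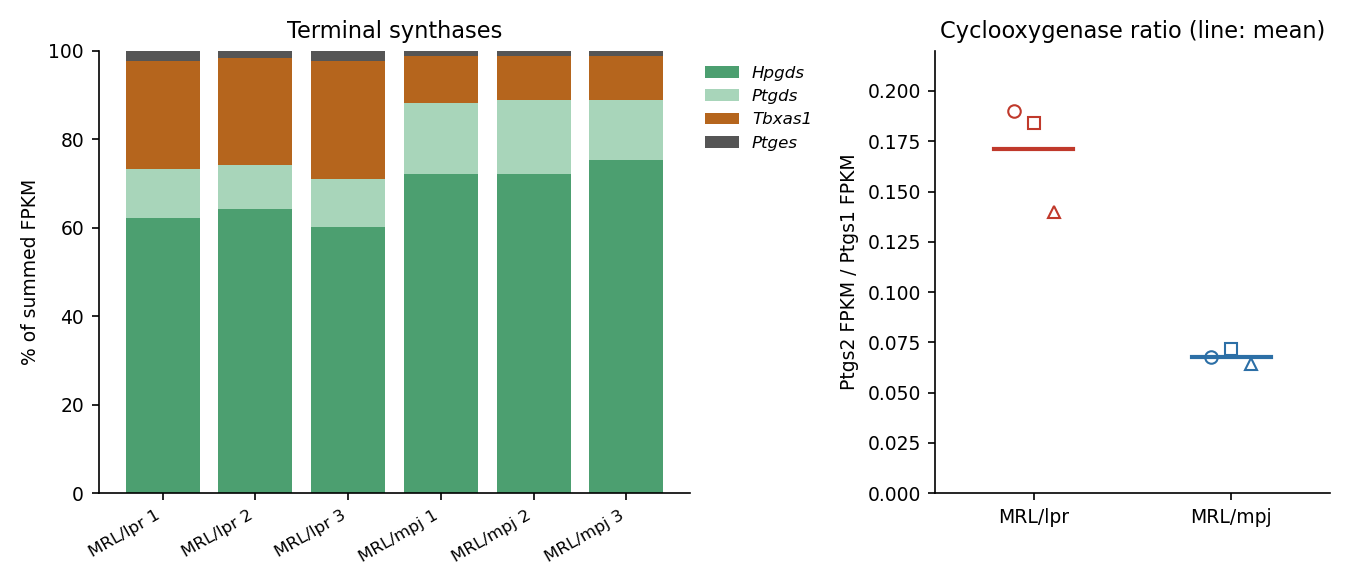
Left, the share of each of the 4 terminal synthases in their summed FPKM, as stacked bars per library. Right, the ratio of Ptgs2 to Ptgs1 FPKM in each library, with circles, squares and triangles for replicates 1, 2 and 3 and a line at the mean. The Tbxas1 share is 25.0 ± 1.36% (SD, n = 3) in MRL/lpr against 10.2 ± 0.394% in MRL/mpj, and the cyclooxygenase ratio is 0.171 against 0.0678.

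Hpgd (ENSMUSG00000031613, chr8:56294585-56321043) was the member that differed most. It had 9626, 9551 and 7335 counts in MRL/lpr and 805, 757 and 690 counts in MRL/mpj. The lowest MRL/lpr library was far above the highest MRL/mpj library, and within each strain replicate 3 was the lowest. The levels were 194 ± 16.4 CPM and 14.7 ± 1.26 CPM (SD, n = 3 each), with coefficients of variation of 8.42% and 8.60%. The log2 fold change was 3.73 (standard error 0.10), and it ran from 3.66 to 3.80 when 1 library was left out. The ratio of Hpgd to Hpgds, the inactivating enzyme over the main PGD synthase, was 1.86, 1.78 and 1.82 in the MRL/lpr libraries and 0.131, 0.122 and 0.101 in the MRL/mpj libraries.

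Other transcripts near Hpgd were looked at by position. Of 3 tested genes that start within 500000 bases of its start, Fbxo8 and Cep44 stood at -0.35 and -0.20 on the log2 scale (adjusted p = 0.0801 and 0.349 in edgeR's quasi-likelihood test). The third, Gm45540, named after its values were seen, is a transcript without an assigned gene type that lies inside Hpgd on the same strand and shares 0 exon bases with it. It had 1384, 1542 and 962 counts in MRL/lpr and 135, 126 and 257 in MRL/mpj, a log2 fold change of 3.08 (SE 0.28, adjusted p = 0.00016 in edgeR's test). Reads of unspliced Hpgd RNA and of Gm45540 cannot be told apart by their place in the genome. Around the other members, genes tested within the same distance had median log2 fold changes between -0.13 and 0.17, and at most 2 of them per member were called.

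Markers of T cells, some of which are known to hold Hpgd, were higher in the MRL/lpr libraries. Of 8 T cell markers 6 were called higher and 0 were at 0 in all libraries, and their summed level was 13.4 to 20.6 CPM in MRL/lpr and 2.84 to 3.84 CPM in MRL/mpj. Foxp3, which marks regulatory T cells, had 14, 36 and 44 counts in MRL/lpr and 27, 10 and 31 in MRL/mpj. The part of T cells in the difference of Hpgd was not tested.

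By profile, the genes closest to Hpgd over the 6 libraries were Igkv1-133, Sult6b2, Ifit3, Gm10552 and Ighv5-4, with root mean square differences of 0.14 to 0.22 in centred log2 CPM. Only Ifit3, an interferon-induced gene, was abundant: it had 4345, 4222 and 3611 counts in MRL/lpr and 506, 476 and 409 in MRL/mpj. The other 4 had at most 58 counts in any library and at most 4 in any MRL/mpj library, so their likeness depends on the prior count of 2 used on the log scale.

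Ptger4 (ENSMUSG00000039942, chr15:5206661-5244187) encodes EP4, a receptor that raises cyclic AMP when PGE2 binds. It had 3074, 3050 and 1951 counts in MRL/lpr and 1033, 1011 and 864 counts in MRL/mpj. The strains did not overlap, and replicate 3 was the lowest of each strain. The levels were 59.0 ± 10.6 CPM and 19.0 ± 2.05 CPM (SD, n = 3 each), a log2 fold change of 1.64 (standard error 0.15) with a range of 1.55 to 1.78 without 1 library. Annotated exons of other genes cover little of Ptger4 apart from the antisense pseudogene Gm15937, which shares 1015 of its 6648 exon bases and had at most 19 counts in any library.

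Ptger2 (ENSMUSG00000037759, chromosome 14) encodes EP2, the other receptor that raises cyclic AMP. It was near the limit of detection, with 69, 53 and 69 counts in MRL/lpr and 34, 54 and 21 in MRL/mpj. In CPM the strains did not overlap, at 1.41 ± 0.266 and 0.715 ± 0.341 (SD, n = 3 each), but MRL/lpr replicate 2 and MRL/mpj replicate 2 were close, at 1.13 and 1.08 CPM. In FPKM these 2 libraries tied at 0.19. The log2 fold change of 0.98 (standard error 0.45) ran from 0.70 to 1.40 without 1 library. Ptger4 exceeded Ptger2 by 14.9 to 44.6 times in FPKM in the 6 libraries.

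Ptger1 (ENSMUSG00000019464, chr8:83666678-83672753) encodes EP1, a PGE2 receptor that signals through calcium. It had 3328, 368 and 2581 counts in MRL/lpr and 2244, 240 and 2138 counts in MRL/mpj. Replicate 2 was far below the other libraries in both strains, and the strains overlapped. The log2 fold change was 0.65 (standard error 1.19), and 98.7% of the genes tested had a smaller spread within strains. With this spread no difference between the strains was detectable, and the level of Ptger1 is uncertain.

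Beyond these members, 78 further genes of arachidonate and prostanoid metabolism, the leukotriene arm and cyclic AMP signalling were listed by role, of which 77 were matched and 69 passed the count filter. By edgeR's quasi-likelihood test, adjusted by Benjamini-Hochberg over all genes, 3 were called higher (Alox5, Pde4b and Ggt5) and 2 were called lower (Ptgis and Cbr2) in MRL/lpr. By the adjusted p alone 9 were higher and 7 were lower. Over all genes tested, 4.67% were called higher and 3.66% were called lower, and by the adjusted p alone 11.1% were higher and 9.06% were lower. These shares also belong beside the counts per list given below. The median log2 fold change was -0.01 both for the list and for all genes. These lists were drawn up with earlier results known, so the shares are descriptions.

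Of 14 genes of arachidonate release that were tested, 0 were called, and 1 was higher by the adjusted p alone. This was Pla2g7, which hydrolyses platelet-activating factor and oxidised phospholipids, with 922, 941 and 565 counts against 592, 478 and 552 and a log2 fold change of 0.75 (SE 0.17, adjusted p = 0.0125). In CPM the strains did not overlap, but the adjusted p of Pla2g7 missed 0.05 when replicate 2 of MRL/lpr was left out (0.0528) or replicate 2 of MRL/mpj (0.0577). Abhd6, a lipase of monoacylglycerols, had a log2 fold change of -0.35 (adjusted p = 0.0501), with values of 0.0133 to 0.173 under other settings.

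Of 9 other prostanoid synthases and reductases tested, 2 fell. Ptgis, the prostacyclin synthase, had 111, 142 and 221 counts in MRL/lpr and 727, 694 and 679 in MRL/mpj, a log2 fold change of -1.95 (SE 0.27, adjusted p = 0.000888). Cbr2, a carbonyl reductase, had 123, 122 and 144 counts against 483, 463 and 468, a log2 fold change of -1.68 (SE 0.19, adjusted p = 0.00022). In both genes each MRL/lpr library was below each MRL/mpj library. Prostacyclin synthase is known from vessel walls and fibroblasts, and the marker sums of choroid plexus and meningeal fibroblasts given for Ptgds were lower in the same libraries, while 6 endothelial markers summed to 1659 to 1828 CPM in MRL/lpr and 1473 to 1527 CPM in MRL/mpj with 0 called and 0 at 0. Cbr2 is known from border macrophages, and 8 markers of these cells summed to 50.8 to 53.9 CPM in MRL/lpr and 53.1 to 60.1 CPM in MRL/mpj, with 0 called and 0 at 0. Most of this sum came from Mrc1 and F13a1, and the markers differed in direction. Cd209f, Lyve1, Clec10a, Mrc1 and Pf4 had log2 fold changes of -1.40, -0.95, -0.69, -0.39 and -0.11. Cd163, Ms4a7 and F13a1 had 0.62, 0.28 and 0.21. Only Mrc1 had an adjusted p under 0.05 (0.0443 in edgeR's quasi-likelihood test). The part of these cells was not tested. Akr1b3, an aldose reductase named after its values were seen, was the 1 gene of this list that was higher by the adjusted p alone, with a log2 fold change of 0.33 (adjusted p = 0.0126).

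Of 6 genes of transport and further breakdown tested, 0 were called. Akr1c14, a hydroxysteroid dehydrogenase, had 249, 253 and 167 counts against 596, 439 and 427, a log2 fold change of -0.96 (SE 0.20, adjusted p = 0.00844). Abcc4, which exports prostaglandins from cells, had a log2 fold change of -0.21 (SE 0.07, adjusted p = 0.0723), with values of 0.011 to 0.225 under other settings.

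Among 6 other prostanoid receptor genes tested, 0 were called, and 2 were lower by the adjusted p alone. Ptger3 encodes EP3, the PGE2 receptor that lowers cyclic AMP, and it had 467, 453 and 383 counts in MRL/lpr and 999, 954 and 949 in MRL/mpj. On the log2 scale the difference was -0.98 (SE 0.11, adjusted p = 0.000266). Ptgfrn, which encodes a membrane partner of tetraspanins that inhibits the PGF receptor, had 1692, 1633 and 1303 counts against 3528, 3211 and 3180 and a log2 fold change of -0.93 (SE 0.09, adjusted p = 9.77e-05). Both lay just under the fold minimum.

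The leukotriene arm, which competes for the same arachidonic acid, held 2 of the called genes among 16 tested. Alox5, the 5-lipoxygenase that starts leukotriene synthesis, had 7346, 7382 and 5996 counts in MRL/lpr and 2071, 1945 and 2026 in MRL/mpj. It rose by 1.95 in log2 (SE 0.07, adjusted p = 3.42e-07). Ggt5, a peptidase that acts on leukotriene C4, had 3449, 2898 and 2892 counts against 1606, 1466 and 1600 and rose by 1.16 (standard error 0.09, adjusted p = 2.5e-05). By the adjusted p alone 3 genes were higher and 1 was lower. The others, named after their values were seen, were Alox5ap, the partner protein of 5-lipoxygenase, with a log2 fold change of 0.54 (adjusted p = 0.000388), and Ltc4s, the leukotriene C4 synthase, with -0.28 (adjusted p = 0.049).

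Of 18 genes of cyclic AMP signalling below EP2 and EP4, 1 was called. Pde4b, a phosphodiesterase that degrades cyclic AMP and is itself induced by it, had 5835, 5812 and 3807 counts in MRL/lpr and 1740, 1437 and 2483 in MRL/mpj. It rose by 1.62 in log2 (SE 0.21, adjusted p = 0.0018). Adcy7, an adenylyl cyclase of myeloid cells, had a log2 fold change of 0.55 (SE 0.06, adjusted p = 0.00017). By the adjusted p alone 4 genes were higher and 1 was lower, and the remaining ones, named after their values were seen, were Adcy4 at 0.48, Rapgef3 at 0.54 and Adcy6 at -0.43.

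**Figure D4:**
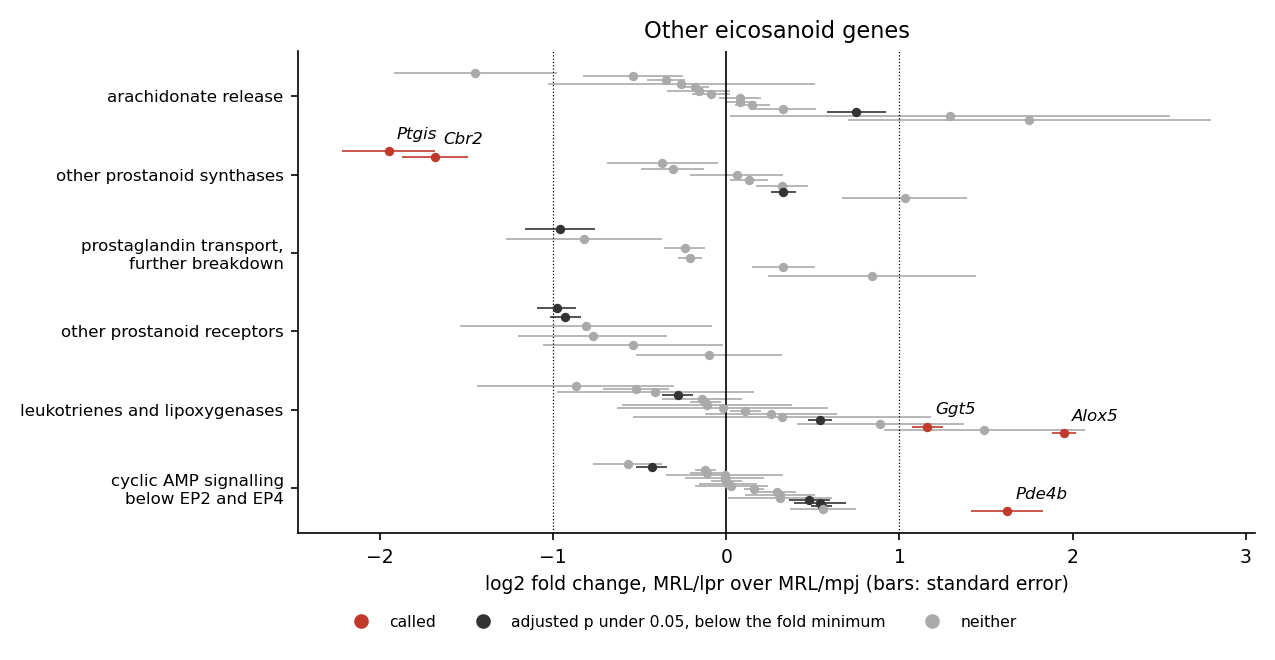
Log2 fold change of MRL/lpr over MRL/mpj with its standard error for the 69 tested genes outside the members, by list, with called genes in red, genes with an adjusted p under 0.05 but below the fold minimum in black and the rest in grey. Alox5, Pde4b and Ggt5 lie to the right of the upper dotted line and Ptgis and Cbr2 to the left of the lower one, while most of the other genes lie between the lines.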

How the data were processed

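RNA of CD11b-selected brain cells was measured in 3 libraries per strain. The authors digested the brains with collagenase before the CD11b selection. The labels describe rRNA depletion and a stranded kit, while the methods describe purified mRNA. By the methods, the authors trimmed reads with cutadapt and aligned them with HISAT2 (1.9.3 and 2.0.4 in the submitters' processing notes, which also name GRCm38, Cuffdiff 2.2.1 and Cufflinks). The counting tool and annotation are not given in the sources used here. The authors deposited raw counts and, for each library, FPKM, which followed the counts with correlations of 0.9999 across genes after each gene was centred.

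Symbols, coordinates and exons came from GENCODE M21 (GRCm38), which matched 55141 of 55401 identifiers, and start regions came from RefSeq (GRCm38.p6). Where a symbol had more than 1 identifier, that with the most counts was used. Counts were filtered with filterByExpr (minimum count 10, minimum total 15), scaled by TMM and tested without covariates with edgeR 4.0.16 (R 4.3.3, robust quasi-likelihood test, Benjamini-Hochberg adjustment over all genes). The common biological coefficient of variation was 0.26. Calls needed a log2 fold change of 1 or more in size and adjusted p under 0.05. Standard errors come from the quasi-likelihood F statistic. The step was tested on simulated data. CPM are scaled by TMM.

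The members and gene lists were chosen with earlier results of these data known. Named genes are the members, the called genes of each list and the 2 with the smallest adjusted p of each list, and the 5 genes nearest to Hpgd in profile, with Fas and Xist as checks. Single cell type markers, Gm15937 and the receptors and enzymes near 0 counts were named after their values were seen. The early response and Y chromosome lists and the window around members were added after the data were seen. Replicates of a strain differed by more than counting noise in each pair. The p-values measure the spread between these libraries only. Alternatives were DESeq2 1.42.0, scaling by library size only, no filter on low counts, dispersions that are not robust, glmTreat, counts divided by 4, the replicate number as a block, and fits without 1 library. A further result is not reported here.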

Additional observations from a re-analysis of the deposited data

How the results depend on the processing

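The count of members called was 4 higher and 0 lower under every alternative run, and the order of the members by level was the same with CPM per kb in place of FPKM in both strains. A test against the fold minimum itself (glmTreat) left 379 genes higher and 237 lower of the 914 and 716 over all genes, and 1 of the 3 other eicosanoid genes higher. Scaling by library size only gave 766 genes higher and 932 lower, so that the share of calls that were higher went from 56.1% to 45.1%, and it gave 6 of the other eicosanoid genes lower in place of 2. Akr1c14, Ptger3, Ptgfrn and Pla2g5 (named after its values were seen) were the 4 added. When 1 library was left out, the other eicosanoid genes called higher ran from 3 to 4 and those called lower from 2 to 4. The count of 4 came without replicate 1 of MRL/lpr and, likewise, without replicate 3 of MRL/mpj, where Akr1c14 and Ptger3 passed the fold minimum, at log2 fold changes of -1.02 and -1.01 and of -1.06 and -1.01. DESeq2 called 1049 genes higher and 872 lower. For the single genes other than members, 135 of the values kept their call and 9 became called, all of Akr1c14, Ptger3 or Ptgfrn, with 0 reversed. The adjusted p alone changed its side of 0.05 in 8 of the values: in Pla2g7 without replicate 2 of MRL/lpr (0.0528) or of MRL/mpj (0.0577), in Abhd6 with library size only (0.0133), counts divided by 4 (0.0472), DESeq2 (0.0478) and without MRL/mpj replicate 1 (0.0362), and in Abcc4 with library size only (0.011) and without MRL/lpr replicate 3 (0.0375). For the members, 122 values moved by less than the spread between replicates and 8 by more, all 8 with scaling by library size only or the ratio of mean FPKM. Among these, Ptgs1 turned from 0.03 to -0.09. Over all genes tested, same-numbered libraries of the strains did not deviate together, with correlations of -0.041, -0.02 and -0.033. Deviations shared by number in a few genes would not show in these values, and Ptger1 was low in replicate 2 of both strains. With the replicate block, 806 genes were higher and 616 lower, 4 members were higher, and 3 other eicosanoid genes were higher and 2 lower. Depth limits Ptger2, whose counts of 21 to 69 would rest on fewer read pairs if a pair enters as about 4 counts.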

Other observations

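Several genes of these pathways were at or near 0 counts in CD11b-selected cells of both strains. Pla2g10, a secreted phospholipase, and Alox12b, a lipoxygenase of skin, had 0 counts in each of the 6 libraries. Ptgdr, the DP1 receptor for PGD2, had 10, 0 and 4 counts in MRL/lpr and 0 in each MRL/mpj library. Ptgdr2, the other PGD2 receptor, had 22, 44 and 34 counts in MRL/lpr and 48, 77 and 68 in MRL/mpj. Tbxa2r, the thromboxane receptor, had 42, 54 and 43 counts in MRL/lpr and 84, 42 and 42 in MRL/mpj. The receptors of PGD2 and thromboxane were thus measured at low counts in the same libraries in which Hpgds had at least 15389 and Tbxas1 at least 4644. The differences of Ptgdr2 and Tbxa2r between the strains, -0.77 and -0.10 on the log2 scale, were not detectable at this depth (adjusted p = 0.266 and 0.91 in edgeR's quasi-likelihood test).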
